A study of Mus musculus with 15 samples.

Results

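Collagen chain genes encode the alpha chains that wind into the triple-helical collagens of the extracellular matrix. Every gene with a symbol of the form Col, a number, a and a number was taken where a row of the array annotation gave it as the single symbol, and where a gene had several rows the brightest on average was kept. This gave 42 collagen genes of 18718 genes tested: 11 fibrillar, 9 network-forming, 8 fibril-associated (FACIT), 6 microfibrillar, 4 transmembrane, 2 multiplexin and 2 other genes (Col26a1 and Col28a1). Col9a3 and Col7a1 were left out because their rows carry several symbols.

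The chains were measured in PDGFRβ+ mesenchymal cells sorted from C57BL/6 mice aged 2 weeks, as PDPN+BP3+, PDPN+BP3- and PDPN- cells of pooled inguinal, axillary and brachial lymph nodes and as PDPN+BP3- and PDPN- cells of thymus. The sort antigens were podoplanin (PDPN), BP3 (encoded by Bst1) and, for either PDPN- gate, Ly51 (encoded by Enpep), which those cells carried. Each population was hybridised to 3 Mouse Gene 1.1 ST arrays of Affymetrix, 1 from each of 3 experiments, so n = 3 throughout and 15 arrays in all. A pool held 10 to 11 mice for lymph node and 3 mice for thymus, so the number of mice in a pool and the tissue cannot be told apart.

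Fibrillar collagens such as types I, III and V form the banded fibres of connective tissue, and FACIT collagens sit on the surface of those fibres. Type IV collagen forms the sheet of basement membranes, type VI collagen forms beaded microfibrils close to cells, and the multiplexins XV and XVIII lie between basement membrane and stroma. In lymph nodes, stromal cells ensheath collagen-rich conduits, and in both organs collagen genes are typical of fibroblasts and of the cells that surround vessels.

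All values below are deposited RMA signals on a log2 scale, where a difference of 1 is a doubling of signal. A gene was called higher or lower in a comparison where the Benjamini-Hochberg adjusted p of the limma fit was below 0.05, and errors of differences are standard errors of that fit. Levels were compared between populations within a gene and never between genes. The median of the whole table was 3.80, and 14 of the 42 collagen genes had no population mean above it, so that their signal need not stand above background. The same holds for any population of another gene below that median, and a difference against such a population rests on a signal that need not be above background. These are bulk samples of sorted cells, in which fewer cells of a type and less RNA per cell cannot be told apart.

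The arrays followed their labels. Pdpn averaged 8.79 in the PDPN+BP3+ cells of lymph node, 8.16 in its PDPN+BP3- cells and 3.41 in its PDPN- cells, and 9.11 in thymus PDPN+BP3- cells against 3.01 in thymus PDPN- cells. Array medians were 3.77 to 3.885 except on thymus PDPN+BP3- replicate 1, at 3.58. That array also had the lowest mean over 6 of 7 listed T-lineage genes in its group, 3.44, against 5.02 and 5.07 on the other thymus PDPN+BP3- arrays. The same mean was 2.73 to 2.98 in the 3 lymph node populations and 5.04 to 5.72 in thymus PDPN- cells, so T-lineage signal moved with the tissue. The mean over 6 fibroblast genes was 5.11 to 5.30 in lymph node PDPN+BP3+ cells, 8.18 to 8.58 in lymph node PDPN+BP3- cells, 4.64 to 4.91 in lymph node PDPN- cells, 9.38 to 9.69 in thymus PDPN+BP3- cells and 3.40 to 3.75 in thymus PDPN- cells. The mean over 8 pericyte and smooth muscle genes was 8.03 to 8.09, 7.30 to 7.70 and 9.68 to 9.89 in the PDPN+BP3+, PDPN+BP3- and PDPN- cells of lymph node, and 6.31 to 6.55 and 9.99 to 10.13 in the PDPN+BP3- and PDPN- cells of thymus. The 6 fibroblast genes did not move together between the PDPN+BP3+ and PDPN- cells of lymph node. Pdgfra was higher in PDPN+BP3+ cells by 4.41 ± 0.14, Cd34 was lower (-0.67 ± 0.19), and Pi16, Lum, Dpt and Dpp4 were not called. Lum and Dpt also belong to the list of genes whose products bind collagen fibrils, described below. The part of these mixtures in the collagen differences below was not tested.

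The upstream sequence of 5 collagen genes is shown because their population means differed by more than 1 on the log2 scale and the 250 bases before their start lie outside every annotated gene span. RefSeq promoter windows, build GRCm38.p6, were found for 34 of the 42 genes. Col1a1, Col2a1, Col4a3, Col5a2, Col12a1, Col14a1, Col22a1 and Col26a1 had none in the table used. Sequences run 5′ to 3′ on the strand of the gene, and capitals mark 3 short motifs searched on both strands. The first motif, known from the core promoters of some genes, was TATAAA and reads TTTATA on the opposite strand. The second, bound by the factor NF-Y, was CCAAT and reads ATTGG on the opposite strand. The third, bound by factors of the Sp family, was GGGCGG and reads CCGCCC on the opposite strand.
Col1a2, chr6:4505368-4505617, strand +: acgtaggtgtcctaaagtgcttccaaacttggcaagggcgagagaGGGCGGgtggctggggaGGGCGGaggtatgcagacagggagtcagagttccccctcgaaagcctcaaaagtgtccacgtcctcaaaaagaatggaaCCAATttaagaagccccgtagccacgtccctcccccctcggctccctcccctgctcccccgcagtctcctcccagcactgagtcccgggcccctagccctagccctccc
Col3a1, chr1:45311288-45311537, strand +: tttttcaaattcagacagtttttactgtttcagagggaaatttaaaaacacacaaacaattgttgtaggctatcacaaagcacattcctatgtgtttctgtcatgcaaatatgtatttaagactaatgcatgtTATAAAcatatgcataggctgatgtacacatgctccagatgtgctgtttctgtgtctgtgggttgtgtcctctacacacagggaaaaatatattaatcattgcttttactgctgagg
Col8a1, chr16:57754738-57754987, strand -: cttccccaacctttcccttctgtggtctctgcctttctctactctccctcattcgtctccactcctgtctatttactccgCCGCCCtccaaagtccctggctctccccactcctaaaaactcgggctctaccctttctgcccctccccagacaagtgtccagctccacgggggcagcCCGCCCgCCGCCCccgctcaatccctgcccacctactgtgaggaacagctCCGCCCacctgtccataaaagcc
Col6a2, chr10:76623631-76623880, strand -: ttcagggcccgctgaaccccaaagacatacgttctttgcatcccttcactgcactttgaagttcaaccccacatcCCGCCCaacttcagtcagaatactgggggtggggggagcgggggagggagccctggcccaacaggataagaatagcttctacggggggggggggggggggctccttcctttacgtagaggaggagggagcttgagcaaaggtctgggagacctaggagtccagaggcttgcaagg
Col18a1, chr10:77166531-77166780, strand -: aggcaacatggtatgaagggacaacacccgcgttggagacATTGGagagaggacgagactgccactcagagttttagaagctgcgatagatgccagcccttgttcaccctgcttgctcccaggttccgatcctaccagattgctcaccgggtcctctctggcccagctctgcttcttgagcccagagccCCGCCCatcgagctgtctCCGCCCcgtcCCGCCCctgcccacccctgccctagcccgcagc
GGGCGG or its complement occurred in 21 of 37 windows of collagen genes (56.8%), and in 32.7% of 32851 windows of all genes, counting the 250 bases before the start in each window. The shares for TATAAA were 13.5% of collagen windows and 12.4% of all windows, and those for CCAAT were 32.4% and 33.8%. Among the sequences printed, Col3a1 held TATAAA and none of the other motifs, and Col8a1 held 4 copies of the GGGCGG complement. These matches describe the letters of the windows and say nothing of binding.

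Over the 5 populations, 31 of the 42 collagen genes varied by the F test of the limma fit, against 45.3% of all genes tested. These were 8 of 11 fibrillar, 8 of 9 network-forming, 3 of 8 FACIT, 6 of 6 microfibrillar, 2 of 4 transmembrane, 2 of 2 multiplexin and 2 of 2 other genes. Of the 31, the highest mean lay in the PDPN+BP3- subset for 13 genes in thymus and for 6 in lymph node. It lay in PDPN- cells for 5 genes in thymus and 3 in lymph node, and in the PDPN+BP3+ subset for 4. The lowest mean lay in thymus PDPN- cells for 18 of the 31 and in lymph node PDPN+BP3+ cells for 10. The same counts were not made over all genes, so they are not shown to be particular to collagen genes. Within populations the spread of collagen genes was small, with a median SD of 0.10 to 0.15 and a highest SD of 0.43, for Col6a6 in lymph node PDPN+BP3- cells. The 14 genes of low signal gave 5 of the 31 calls and the other 28 gave 26.

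**Figure D1:**
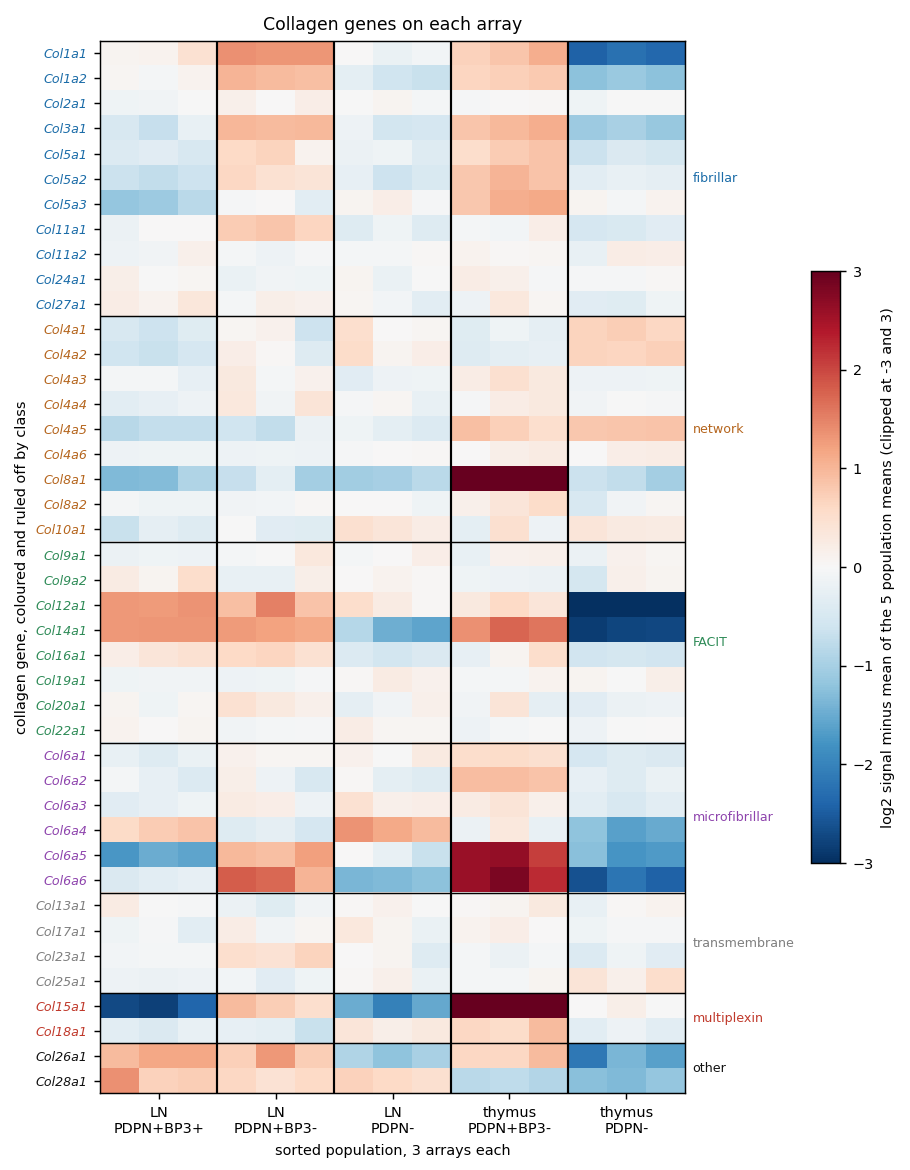
Log2 signal of each of the 42 collagen genes (rows, grouped by class) on each of the 15 arrays (columns, 3 per population), minus the mean of the 5 population means of that gene; the colour scale is clipped at -3 and 3. Col1a1, Col12a1, Col14a1 and Col6a6 are blue on the 3 thymus PDPN- arrays, while Col8a1 and Col15a1 are red on the 3 thymus PDPN+BP3- arrays.

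Among the fibrillar genes the main interstitial collagens were high in the PDPN+BP3- cells of both tissues, lower in lymph node PDPN+BP3+ cells and lowest in thymus PDPN- cells. Col1a1 (chr11:94936224-94953042, GRCm38.p6), the alpha 1 chain of type I collagen, read 8.92, 8.93 and 9.28 in the PDPN+BP3+ cells of lymph node, 10.20, 10.16 and 10.15 in its PDPN+BP3- cells, and 8.85, 8.63 and 8.74 in its PDPN- cells. In thymus, Col1a1 read 9.51, 9.67 and 9.92 in PDPN+BP3- cells, against 6.40, 6.60 and 6.48 in PDPN- cells. The 3 thymus PDPN- arrays lay more than 2 log2 units below every other array, and the PDPN+BP3- arrays of each tissue lay above the PDPN- arrays of the same tissue without overlap. The PDPN+BP3- minus PDPN- difference was 3.21 ± 0.13 in thymus and 1.43 ± 0.13 in lymph node, and these subset differences differed from each other by -1.78 ± 0.18 (adjusted p 5.16e-06).

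Col1a2, the partner chain of type I collagen, read 9.42, 9.29 and 9.47 in the PDPN+BP3+ cells of lymph node, 10.38, 10.30 and 10.25 in its PDPN+BP3- cells and 9.06, 8.76 and 8.69 in its PDPN- cells. In thymus, Col1a2 read 10.01, 10.08 and 10.13 in PDPN+BP3- cells, against 8.12, 8.24 and 8.13 in PDPN- cells. Its order of populations was that of Col1a1, with a narrower range: its population means spanned 2.15, those of Col1a1 3.68. For Col1a2 the subset difference was 1.91 ± 0.11 in thymus and 1.47 ± 0.11 in lymph node, and the difference between them, -0.44 ± 0.15, did not pass the test (adjusted p 0.0781).

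Col3a1, the chain of type III collagen, read 9.14, 8.92 and 9.38 in the PDPN+BP3+ cells of lymph node, 10.60, 10.57 and 10.58 in its PDPN+BP3- cells and 9.46, 9.06 and 9.11 in its PDPN- cells. In thymus, Col3a1 read 10.45, 10.58 and 10.69 in PDPN+BP3- cells, against 8.51, 8.63 and 8.48 in PDPN- cells. The PDPN+BP3- arrays of the tissues overlapped, and their difference was 0.01 ± 0.13 (adjusted p 0.975). Lymph node PDPN+BP3+ and PDPN- arrays overlapped too, at a difference of -0.06 ± 0.13 (adjusted p 0.798). The interval of either difference is set by 3 arrays per population, so a p above the threshold does not show equal levels.

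The type V chains, which take part in starting fibrils, differed among themselves. Col5a1 read 6.19, 6.27 and 6.12 in the PDPN+BP3+ cells of lymph node, 7.21, 7.27 and 6.72 in its PDPN+BP3- cells and 6.42, 6.48 and 6.22 in its PDPN- cells. In thymus, Col5a1 read 7.14, 7.36 and 7.46 in PDPN+BP3- cells, against 5.97, 6.16 and 6.07 in PDPN- cells. The PDPN+BP3- arrays lay above the PDPN- arrays of the same tissue. Col5a2 read 7.05, 6.95 and 7.08 in the PDPN+BP3+ cells of lymph node, 8.31, 8.15 and 8.09 in its PDPN+BP3- cells and 7.46, 7.08 and 7.24 in its PDPN- cells. In thymus, Col5a2 read 8.50, 8.72 and 8.55 in PDPN+BP3- cells, against 7.37, 7.47 and 7.42 in PDPN- cells. The same separation held for Col5a2. Col5a1 and Col5a2 were higher in the PDPN+BP3- subset than in PDPN- cells of both tissues, by 1.25 ± 0.14 and 1.17 ± 0.11 in thymus and by 0.69 ± 0.14 and 0.92 ± 0.11 in lymph node. Col5a3 read 4.02, 4.10 and 4.39 in the PDPN+BP3+ cells of lymph node, 5.16, 5.20 and 4.87 in its PDPN+BP3- cells and 5.28, 5.38 and 5.16 in its PDPN- cells. In thymus, Col5a3 read 6.00, 6.28 and 6.33 in PDPN+BP3- cells, against 5.28, 5.13 and 5.29 in PDPN- cells. The lymph node PDPN+BP3+ arrays were the lowest of all 15 and the thymus PDPN+BP3- arrays the highest. Its subset difference was 0.97 ± 0.13 in thymus and -0.20 ± 0.13 in lymph node, where it did not pass the test, and these differed by -1.17 ± 0.19 (adjusted p 0.000447).

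Col11a1, a chain of type XI collagen known from cartilage fibrils, stayed below the table median in every population and read highest in lymph node PDPN+BP3- cells. Its means were 2.93 ± 0.11, 3.71 ± 0.09 and 2.67 ± 0.15 in the PDPN+BP3+, PDPN+BP3- and PDPN- cells of lymph node, and 2.99 ± 0.16 and 2.54 ± 0.09 in the PDPN+BP3- and PDPN- cells of thymus (SD, n = 3). The 3 lymph node PDPN+BP3- arrays stood above the other 12. Col2a1, the chain of cartilage type II collagen, Col11a2 and Col24a1 varied by 0.14 to 0.25 between population means and were not called in any comparison, and Col27a1 was called by the F test alone (adjusted p 0.0452).

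**Figure D2:**
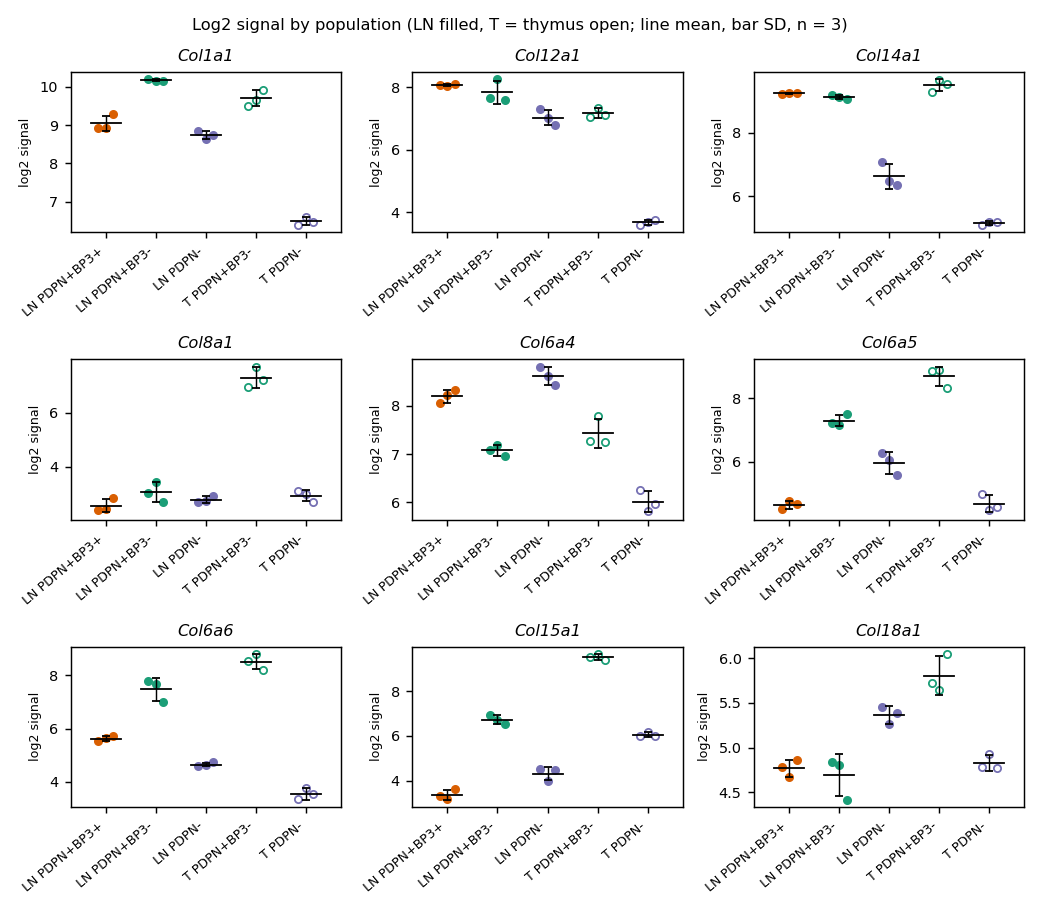
Log2 signal of 9 collagen genes on each array (points), with the mean (line) and SD (bar) of each population of 3 arrays; filled points are lymph node (LN) and open points thymus (T). Col8a1 and Col15a1 stand highest in thymus PDPN+BP3- cells, Col12a1 and Col1a1 stand lowest in thymus PDPN- cells, and Col6a4 runs opposite to Col6a5 and Col6a6 in lymph node.

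The network-forming genes split into the basement membrane pair Col4a1 and Col4a2, which were lower in the PDPN+BP3- subset of thymus and the PDPN+BP3+ subset of lymph node than in the PDPN- cells of the same tissue, and Col8a1, whose high signal was limited to the thymus PDPN+BP3- arrays among the 15. Col4a1 and Col4a2 encode the chains of the type IV trimer found in nearly all basement membranes. Col4a1 read 8.32, 8.16 and 8.44 in the PDPN+BP3+ cells of lymph node, 8.86, 8.92 and 8.17 in its PDPN+BP3- cells and 9.30, 8.81 and 8.85 in its PDPN- cells. In thymus, Col4a1 read 8.44, 8.66 and 8.53 in PDPN+BP3- cells, against 9.47, 9.52 and 9.42 in PDPN- cells. The thymus populations did not overlap, and replicate 3 of the lymph node PDPN+BP3- cells lay among the PDPN+BP3+ arrays.

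Col4a2 read 7.61, 7.54 and 7.70 in the PDPN+BP3+ cells of lymph node, 8.40, 8.25 and 7.81 in its PDPN+BP3- cells and 8.75, 8.28 and 8.40 in its PDPN- cells. In thymus, Col4a2 read 7.83, 7.92 and 7.95 in PDPN+BP3- cells, against 8.87, 8.85 and 8.91 in PDPN- cells. In thymus both genes of the pair were lower in the PDPN+BP3- subset, with differences from PDPN- cells of -0.93 ± 0.18 (Col4a1) and -0.98 ± 0.14 (Col4a2). In lymph node both were lower in the PDPN+BP3+ subset, with differences from PDPN- cells of -0.68 ± 0.18 and -0.86 ± 0.14. The PDPN+BP3- subset of lymph node overlapped with its PDPN- cells for both genes and did not pass the test (Col4a1 -0.34 ± 0.18, adjusted p 0.21, and Col4a2 -0.32 ± 0.14, adjusted p 0.133). The genes lie head to head on chromosome 8 and their annotated spans (11198423 to 11312889 for Col4a1, 11312805 to 11449287 for Col4a2) overlap by 85 bases.

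Pericyte and smooth muscle markers were higher on the same PDPN- arrays. The endothelial mean was highest in the PDPN+BP3- cells in lymph node, while in thymus it was higher in PDPN- cells. In thymus 1 of 7 endothelial genes was called higher in PDPN+BP3- cells and 1 lower. The lower one was Emcn, which averaged 4.51 in PDPN+BP3- cells and 7.72 in PDPN- cells of thymus. The mean over 7 endothelial genes was 3.17 to 3.38 in the PDPN+BP3+ cells, 3.93 to 4.39 in the PDPN+BP3- cells and 3.17 to 3.77 in the PDPN- cells of lymph node, and 3.16 to 3.30 and 3.49 to 3.55 in the PDPN+BP3- and PDPN- cells of thymus. Their part in the type IV values was not tested.

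Of the remaining type IV chains, Col4a5 followed tissue. Col4a5 read 2.92, 3.03 and 3.04 in the PDPN+BP3+ cells of lymph node, 3.16, 3.02 and 3.57 in its PDPN+BP3- cells and 3.63, 3.45 and 3.35 in its PDPN- cells. In thymus, Col4a5 read 4.65, 4.48 and 4.25 in PDPN+BP3- cells, against 4.56, 4.59 and 4.60 in PDPN- cells. Its means were 3.00 ± 0.07, 3.25 ± 0.29 and 3.48 ± 0.14 (SD, n = 3) in lymph node PDPN+BP3+, PDPN+BP3- and PDPN- cells, against 4.46 ± 0.20 and 4.58 ± 0.02 in thymus PDPN+BP3- and PDPN- cells. All 9 lymph node arrays lay below all 6 thymus arrays. The tissue difference was -1.21 ± 0.14 in PDPN+BP3- cells and -1.11 ± 0.14 in PDPN- cells. Col4a3 and Col4a4, which share a trimer with Col4a5 in the kidney, and Col4a6, the X-chromosomal neighbour of Col4a5 across 1274 bases, had population means between 2.44 and 3.45.

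Col8a1 (chr16:57624256-57754737), a short-chain collagen of vessel walls and of the membrane behind the cornea, read 2.39, 2.42 and 2.82 in the PDPN+BP3+ cells of lymph node, 3.02, 3.43 and 2.69 in its PDPN+BP3- cells and 2.67, 2.73 and 2.91 in its PDPN- cells. In thymus, Col8a1 read 6.95, 7.72 and 7.22 in PDPN+BP3- cells, against 3.08, 2.97 and 2.70 in PDPN- cells. Every array outside thymus PDPN+BP3- cells was below the table median. The subset difference was 4.38 ± 0.20 in thymus and 0.28 ± 0.20 in lymph node (adjusted p 0.404), and the difference between the tissues was -4.10 ± 0.29. Col8a2, the partner chain of type VIII collagen, had its highest mean in the same population, 3.00 ± 0.20, with 2.47 to 2.61 in the other 4. Col10a1, a chain of hypertrophic cartilage, had means of 3.46 ± 0.21, 3.66 ± 0.19 and 4.26 ± 0.14 in lymph node PDPN+BP3+, PDPN+BP3- and PDPN- cells, and of 3.92 ± 0.42 and 4.20 ± 0.06 in thymus PDPN+BP3- and PDPN- cells.

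In the FACIT class 3 genes, Col12a1, Col14a1 and Col16a1, were higher in the PDPN+BP3- subset than in PDPN- cells of both tissues, and 5 did not pass the F test. Col12a1 (chr9:79598987-79721141) and Col14a1 (chr15:55307644-55520803) encode homotrimers that bind the surface of type I fibrils. Col12a1 read 8.06, 8.04 and 8.10 in the PDPN+BP3+ cells of lymph node, 7.67, 8.26 and 7.60 in its PDPN+BP3- cells and 7.29, 7.01 and 6.79 in its PDPN- cells. In thymus, Col12a1 read 7.04, 7.35 and 7.11 in PDPN+BP3- cells, against 3.59, 3.67 and 3.75 in PDPN- cells. The 3 thymus PDPN- arrays lay below the table median and below the other 12 arrays. Between the PDPN- cells of lymph node and thymus Col12a1 differed by 3.36 ± 0.16.

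Col14a1 read 9.22, 9.26 and 9.25 in the PDPN+BP3+ cells of lymph node, 9.20, 9.13 and 9.06 in its PDPN+BP3- cells and 7.06, 6.46 and 6.34 in its PDPN- cells. In thymus, Col14a1 read 9.29, 9.67 and 9.52 in PDPN+BP3- cells, against 5.09, 5.17 and 5.19 in PDPN- cells. It separated podoplanin-positive from podoplanin-negative cells on all 15 arrays. The lymph node PDPN+BP3+ cells exceeded the PDPN- cells by 2.62 ± 0.15 and did not differ from the PDPN+BP3- cells beyond the error (0.11 ± 0.15, adjusted p 0.764).

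Col16a1, another FACIT chain, read 5.13, 5.28 and 5.38 in the PDPN+BP3+ cells of lymph node, 5.53, 5.58 and 5.38 in its PDPN+BP3- cells and 4.52, 4.37 and 4.50 in its PDPN- cells. In thymus, Col16a1 read 4.68, 5.01 and 5.44 in PDPN+BP3- cells, against 4.34, 4.39 and 4.35 in PDPN- cells. Its PDPN- arrays lay below its podoplanin-positive arrays in each tissue. Col9a1, Col9a2, Col19a1, Col20a1 and Col22a1 had population means that spanned 0.19 to 0.53 and were called in no comparison.

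The microfibrillar class is type VI collagen, and all 6 of its genes were higher in the PDPN+BP3- subset of thymus than in its PDPN- cells. Col6a1, Col6a2 and Col6a3 encode the chains of the common type VI trimer, and Col6a4, Col6a5 and Col6a6 encode chains that can take the place of the alpha 3 chain. Col6a1 read 9.02, 8.87 and 9.06 in the PDPN+BP3+ cells of lymph node, 9.37, 9.31 and 9.30 in its PDPN+BP3- cells and 9.37, 9.23 and 9.52 in its PDPN- cells. In thymus, Col6a1 read 9.77, 9.79 and 9.73 in PDPN+BP3- cells, against 8.75, 8.87 and 8.81 in PDPN- cells. The thymus PDPN+BP3- arrays were the highest of the 15.

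The subset differences of the common chains in thymus were 0.95 ± 0.10 for Col6a1, 1.18 ± 0.15 for Col6a2 and 0.64 ± 0.13 for Col6a3. In lymph node the same differences were -0.05 ± 0.10, 0.06 ± 0.15 and -0.18 ± 0.13, none past the threshold. Col6a2 read 8.84, 8.65 and 8.49 in the PDPN+BP3+ cells of lymph node, 9.06, 8.74 and 8.40 in its PDPN+BP3- cells and 8.92, 8.59 and 8.50 in its PDPN- cells. In thymus, Col6a2 read 9.81, 9.81 and 9.75 in PDPN+BP3- cells, against 8.64, 8.50 and 8.69 in PDPN- cells. The 3 thymus PDPN+BP3- arrays lay above the other 12. Col6a2 had means of 8.66 ± 0.18, 8.73 ± 0.33 and 8.67 ± 0.22 in lymph node PDPN+BP3+, PDPN+BP3- and PDPN- cells, and of 9.79 ± 0.03 and 8.61 ± 0.10 in thymus PDPN+BP3- and PDPN- cells. The means of the other 4 populations lay between 8.61 and 8.73. Col6a3 read 9.47, 9.57 and 9.68 in the PDPN+BP3+ cells of lymph node, 10.06, 10.01 and 9.66 in its PDPN+BP3- cells and 10.27, 9.97 and 10.02 in its PDPN- cells. In thymus, Col6a3 read 10.07, 10.20 and 9.96 in PDPN+BP3- cells, against 9.50, 9.33 and 9.49 in PDPN- cells. Col6a3 had its lowest means in lymph node PDPN+BP3+ cells, 9.57 ± 0.11, and thymus PDPN- cells, 9.44 ± 0.10.

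Col6a4 read 8.05, 8.22 and 8.32 in the PDPN+BP3+ cells of lymph node, 7.08, 7.19 and 6.96 in its PDPN+BP3- cells and 8.81, 8.61 and 8.42 in its PDPN- cells. In thymus, Col6a4 read 7.28, 7.78 and 7.24 in PDPN+BP3- cells, against 6.25, 5.83 and 5.96 in PDPN- cells. The subset order was opposite in the tissues: PDPN+BP3- cells were higher in thymus (1.42 ± 0.16) and lower in lymph node (-1.54 ± 0.16), and the difference between these values was -2.96 ± 0.22 (adjusted p 2.11e-07). No arrays of the compared populations overlapped.

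Col6a5 read 4.50, 4.76 and 4.66 in the PDPN+BP3+ cells of lymph node, 7.22, 7.15 and 7.49 in its PDPN+BP3- cells and 6.27, 6.04 and 5.59 in its PDPN- cells. In thymus, Col6a5 read 8.84, 8.88 and 8.32 in PDPN+BP3- cells, against 4.99, 4.48 and 4.56 in PDPN- cells. The lymph node PDPN+BP3+ and thymus PDPN- arrays overlapped at the low end, and the other 3 populations were separate from them and from each other. For Col6a5 the subset difference was 4.0 ± 0.19 in thymus and 1.32 ± 0.19 in lymph node.

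Col6a6 read 5.52, 5.64 and 5.71 in the PDPN+BP3+ cells of lymph node, 7.77, 7.69 and 6.99 in its PDPN+BP3- cells and 4.59, 4.64 and 4.73 in its PDPN- cells. In thymus, Col6a6 read 8.55, 8.79 and 8.21 in PDPN+BP3- cells, against 3.35, 3.77 and 3.53 in PDPN- cells. All 5 populations were separate, with the thymus PDPN- arrays below the table median, and the thymus subset difference was 4.97 ± 0.19. The 3 genes are neighbours on one strand of chromosome 9, in the order Col6a6 (105689417 to 105828246), Col6a5 (105856070 to 105962463) and Col6a4 (105990318 to 106096828), with gaps of 27823 and 27854 bases. Within this cluster the lymph node PDPN+BP3+ minus PDPN+BP3- difference was -1.86 ± 0.19 for Col6a6, -2.65 ± 0.19 for Col6a5 and 1.12 ± 0.16 for Col6a4.

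The multiplexins moved apart from each other in lymph node. Col15a1 (chr4:47207655-47313167), whose product links basement membranes to the surrounding fibrils, read 3.30, 3.20 and 3.62 in the PDPN+BP3+ cells of lymph node, 6.95, 6.73 and 6.51 in its PDPN+BP3- cells and 4.51, 3.97 and 4.47 in its PDPN- cells. In thymus, Col15a1 read 9.54, 9.66 and 9.39 in PDPN+BP3- cells, against 6.01, 6.17 and 5.98 in PDPN- cells. No 2 populations overlapped, and all 3 PDPN+BP3+ arrays were below the table median. The subset difference was 3.48 ± 0.16 in thymus and 2.41 ± 0.16 in lymph node, and these differed by -1.06 ± 0.22 (adjusted p 0.00451).

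Col18a1 (chr10:77052178-77166530), the source of the fragment endostatin, read 4.78, 4.67 and 4.86 in the PDPN+BP3+ cells of lymph node, 4.84, 4.81 and 4.42 in its PDPN+BP3- cells and 5.46, 5.26 and 5.39 in its PDPN- cells. In thymus, Col18a1 read 5.72, 5.65 and 6.05 in PDPN+BP3- cells, against 4.78, 4.93 and 4.77 in PDPN- cells. As with Col6a4, PDPN+BP3- cells were higher in thymus (0.98 ± 0.13) and lower in lymph node (-0.68 ± 0.13), and the values differed by -1.66 ± 0.19 (adjusted p 1.78e-05). Col1a1, Col15a1 and Col18a1, the markers given for the set, gave 3 different orders of the populations.

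The 4 transmembrane collagens had population means of at most 4.26. Among them, Col23a1 read 3.64, 3.68 and 3.66 in the PDPN+BP3+ cells of lymph node, 4.24, 4.15 and 4.40 in its PDPN+BP3- cells and 3.74, 3.82 and 3.35 in its PDPN- cells. In thymus, Col23a1 read 3.68, 3.56 and 3.67 in PDPN+BP3- cells, against 3.31, 3.61 and 3.39 in PDPN- cells. The lymph node PDPN+BP3- arrays stood above the other 12 for Col23a1. Col25a1, known from neurons, was lower in the PDPN+BP3- subset of thymus than in its PDPN- cells (-0.38 ± 0.12), and Col13a1 and Col17a1, of the neuromuscular junction and of hemidesmosomes, were called in no comparison.

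Col26a1 and Col28a1 belong to none of these classes. Col26a1 read 6.43, 6.64 and 6.64 in the PDPN+BP3+ cells of lymph node, 6.19, 6.79 and 6.23 in its PDPN+BP3- cells and 4.58, 4.28 and 4.52 in its PDPN- cells. In thymus, Col26a1 read 6.11, 6.11 and 6.43 in PDPN+BP3- cells, against 3.35, 4.11 and 3.86 in PDPN- cells. Like Col14a1, it separated podoplanin-positive from podoplanin-negative cells on all 15 arrays. Col28a1, a collagen of peripheral nerve, read 5.05, 4.38 and 4.43 in the PDPN+BP3+ cells of lymph node, 4.31, 4.13 and 4.28 in its PDPN+BP3- cells and 4.37, 4.29 and 4.18 in its PDPN- cells. In thymus, Col28a1 read 2.89, 2.92 and 2.80 in PDPN+BP3- cells, against 2.44, 2.36 and 2.52 in PDPN- cells. All 9 lymph node arrays lay above all 6 thymus arrays, the reverse of Col4a5.

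How podoplanin-positive and podoplanin-negative mesenchyme differ was asked within each tissue. In thymus, collagen genes of the fibrillar, FACIT, type VI and multiplexin classes were higher in PDPN+BP3- cells and the basement membrane pair Col4a1 and Col4a2 was lower. Of the 42 genes 23 were higher and 3 lower, against 10.3% higher and 18.2% lower among all genes tested (28.5% in either direction). The all-gene balance depended on the scaling: 64% of all genes called were lower with the deposited scaling and 44.5% after cyclic loess, where 24 collagen genes were higher and 2 lower. The median difference was 0.46 over the collagen genes and -0.05 over all genes. By class, 7 of 11 fibrillar, 3 of 9 network-forming, 3 of 8 FACIT, 6 of 6 microfibrillar, 0 of 4 transmembrane, 2 of 2 multiplexin and 2 of 2 other genes were higher. The third lower gene was Col25a1. Differences above 2 were those of Col6a6, Col8a1, Col14a1 (4.34 ± 0.15), Col6a5, Col12a1 (3.50 ± 0.16), Col15a1, Col1a1, Col26a1 (2.44 ± 0.19) and Col3a1 (2.03 ± 0.13). Markers of other cells moved with the same subset: the mean over 3 mesothelial genes was 3.98 to 4.25 on the thymus PDPN+BP3- arrays, against 2.44 to 2.88 on all 12 remaining arrays, with Wt1 higher by 3.09 ± 0.13, Upk3b higher by 1.05 ± 0.15 and Msln at 0.01 ± 0.18. Their part in the collagen differences was not tested. Without thymus PDPN+BP3- replicate 1 the counts were 23 higher and 2 lower, and the calls of Col25a1 (adjusted p 0.0795) and Col28a1 (adjusted p 0.0829) were lost while that of Col27a1 was gained (0.47, adjusted p 0.0211).

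In lymph node, 15 of the 42 genes were higher in the PDPN+BP3- subset than in PDPN- cells and 3 were lower, against 13.4% and 9.79% of all genes (23.1% either way). The median difference was 0.05, and -0.01 over all genes. Higher were 6 of 11 fibrillar genes, led by Col1a2 (1.47 ± 0.11), Col1a1 and Col3a1 (1.37 ± 0.13), the 3 FACIT genes Col14a1 (2.51 ± 0.15), Col16a1 (1.03 ± 0.15) and Col12a1 (0.81 ± 0.16), and Col6a6 (2.83 ± 0.19), Col6a5, Col15a1, Col26a1 (1.94 ± 0.19), Col23a1 (0.63 ± 0.13) and Col4a3 (0.34 ± 0.11). Lower were Col6a4, Col18a1 and Col10a1 (-0.60 ± 0.17). The thymus and lymph node comparisons contrast different arrays. The fit takes the spread of a gene from all 15 arrays, so their calls are not fully independent. Higher in both were 14 genes, which is 14 of the 23 higher in thymus and 14 of the 15 higher in lymph node. How many of all genes were higher in both was not counted, so this overlap is not set against other genes. The calls of Col4a3 and Col10a1 were lost in alternatives, with adjusted p of up to 0.202 and 0.0715.

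Whether the subset difference depended on the tissue was tested directly, as the lymph node difference minus the thymus difference. It was negative for 14 collagen genes and positive for 2, against 4.05% and 8.67% of all genes (12.7% either way), and the median was -0.28 over collagen genes and 0.06 over all genes. All 6 type VI genes were among the 14. The others were Col8a1, Col12a1 (-2.68 ± 0.23), Col14a1 (-1.83 ± 0.22), Col1a1, Col18a1, Col5a3, Col15a1 and Col3a1 (-0.66 ± 0.19), and the positive genes were Col11a1 (0.59 ± 0.16) and Col4a2 (0.65 ± 0.20). With the arrays centred on their medians there were 17 negative and 0 positive, and without thymus PDPN+BP3- replicate 1 there were 15 negative and 1 positive, Col4a2 being lost (adjusted p 0.0871). The interaction of Col3a1 was lost in 6 alternatives, with an adjusted p of up to 0.063. Cell type markers gave interactions too. All 6 fibroblast genes were negative (median -2.1), and 7 of 8 pericyte and smooth muscle genes were positive (median 1.3). Of 3 mesothelial genes 2 were negative, and of 5 measured lymphoid reticular genes 3 were positive. Their part in the collagen interactions was not tested.

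**Figure D3:**
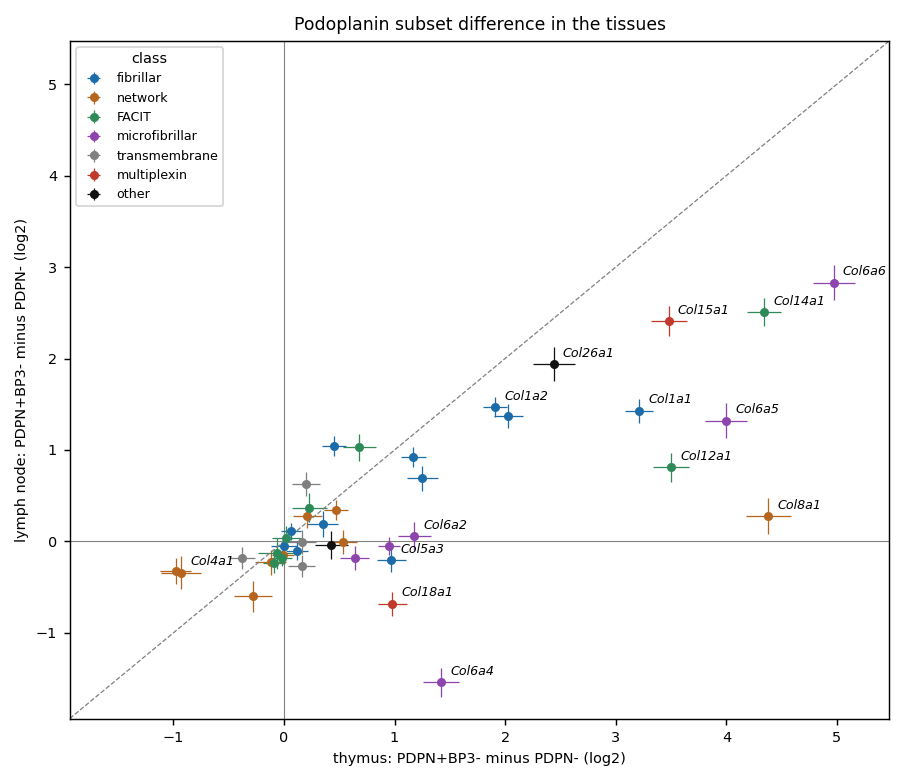
Log2 difference PDPN+BP3- minus PDPN- in lymph node (vertical) against that in thymus (horizontal) for the 42 collagen genes, coloured by class, with bars of 1 standard error and a dashed line of equality. The genes with a thymus difference above 1 lie below the line, and Col6a4 and Col18a1 lie right of zero and below zero.

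Among podoplanin-positive lymph node cells, the BP3+ subset had less signal of fibrillar collagens than the BP3- subset. The BP3+ subset was lower for 14 of the 42 genes and higher for 1, against 7.74% and 8.49% of all genes (16.2% either way), with medians of -0.24 over collagen genes and 0.01 over all genes. The lower genes held 7 of 11 fibrillar genes: Col3a1 (-1.44 ± 0.13), Col5a2 (-1.16 ± 0.11), Col1a1 (-1.13 ± 0.13), Col1a2 (-0.92 ± 0.11), Col5a3 (-0.91 ± 0.13), Col5a1 (-0.87 ± 0.14) and Col11a1 (-0.79 ± 0.11). Also lower were Col15a1 (-3.36 ± 0.16), Col6a5 and Col6a6. Col23a1 (-0.60 ± 0.13), Col4a2 (-0.54 ± 0.14), Col4a4 (-0.44 ± 0.13) and Col6a1 (-0.34 ± 0.10) made up the rest, and the 1 higher gene was Col6a4. None of the 8 FACIT genes was called, and their differences ran from -0.31 to 0.37. The calls of Col4a2, Col4a4 and Col6a1 were lost when single lymph node arrays were left out, with adjusted p of up to 0.0959, 0.152 and 0.125. Fibroblast marker signal was lower and lymphoid reticular marker signal higher in the same PDPN+BP3+ cells: 5 of 6 listed reticular genes averaged 8.75 to 9.03 there and 6.63 to 6.98 in PDPN+BP3- cells. Of 7 endothelial genes 6 were lower (median -0.67), and of 8 pericyte and smooth muscle genes 4 were higher (median 0.49). Their part in the collagen differences was not tested.

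**Figure D4:**
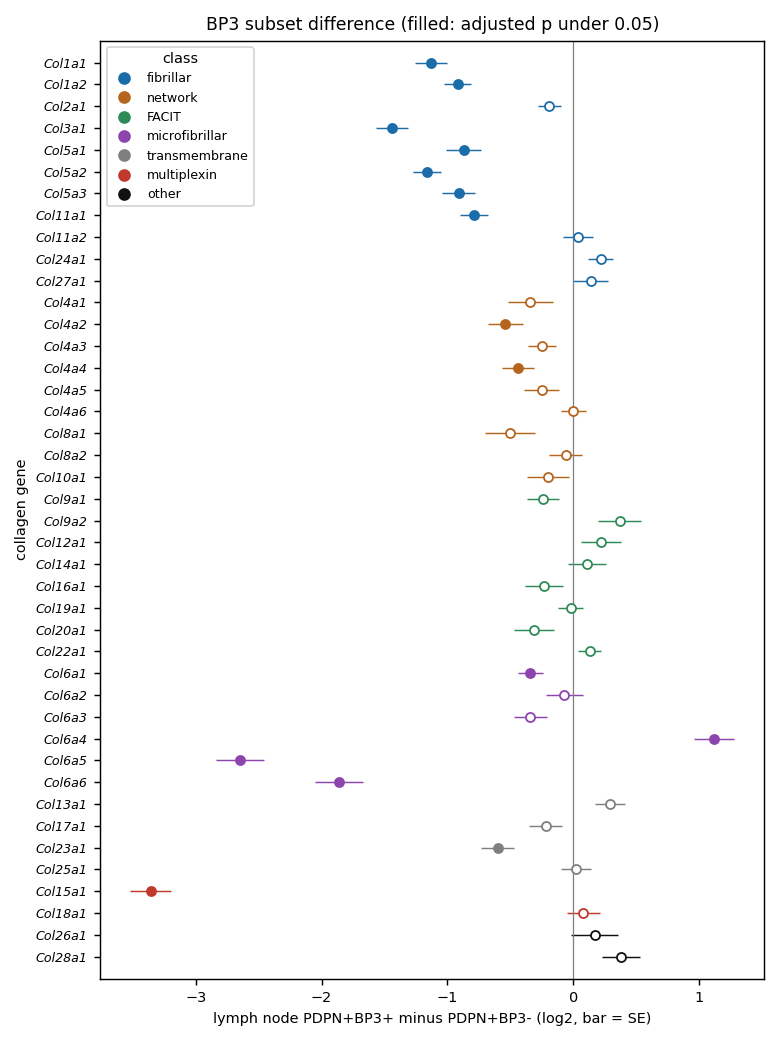
Log2 difference lymph node PDPN+BP3+ minus PDPN+BP3- cells (horizontal) for each of the 42 collagen genes (rows, coloured by class), with bars of 1 standard error; filled points have an adjusted p below 0.05. The 7 filled fibrillar points lie between -1.44 and -0.79, Col15a1 lies at -3.36, and Col6a4 is the 1 filled point right of zero.

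Set against the PDPN- cells of lymph node, the PDPN+BP3+ cells had 6 collagen genes higher and 10 lower, against 16.1% and 11.2% of all genes (27.3% either way), with medians of -0.08 and 0.00. Higher were the FACIT genes Col14a1, Col12a1 (1.04 ± 0.16) and Col16a1 (0.80 ± 0.15), with Col26a1 (2.11 ± 0.19), Col6a6 (0.97 ± 0.19) and Col1a2 (0.56 ± 0.11). Lower were Col6a5 (-1.33 ± 0.19), Col5a3 (-1.10 ± 0.13), Col15a1 (-0.94 ± 0.16), Col4a2, Col10a1 (-0.80 ± 0.17), Col4a1, Col18a1 (-0.60 ± 0.13), Col6a3 (-0.51 ± 0.13), Col4a5 (-0.48 ± 0.14) and Col6a1 (-0.39 ± 0.10). This comparison uses the PDPN- arrays of the lymph node comparison above, so their calls are not independent. Only the call of Col4a5 was lost in an alternative, without lymph node PDPN- replicate 1 or PDPN+BP3+ replicate 1, with an adjusted p of up to 0.0674.

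How the tissues differ was asked within each subset. In PDPN+BP3- cells, 6 collagen genes were higher in lymph node than in thymus and 10 were lower, against 11.8% and 5.29% of all genes (17.1% either way), with medians of -0.16 and 0.04. Lower in lymph node were Col8a1 (-4.25 ± 0.20), both multiplexins (Col15a1 -2.80 ± 0.16, Col18a1 -1.12 ± 0.13), 4 of 6 type VI genes (Col6a5 -1.39 ± 0.19, Col6a2 -1.06 ± 0.15, Col6a6 -1.03 ± 0.19 and Col6a1 -0.44 ± 0.10), Col4a5, Col5a3 (-1.13 ± 0.13) and Col5a2 (-0.41 ± 0.11). Higher were Col28a1 (1.37 ± 0.15), Col11a1 (0.73 ± 0.11), Col12a1 (0.68 ± 0.16), Col23a1 (0.63 ± 0.13), Col1a1 (0.47 ± 0.13) and Col16a1 (0.45 ± 0.15). Cyclic loess between arrays gave 3 higher and 16 lower and centring on array medians gave 5 higher and 15 lower. Without thymus PDPN+BP3- replicate 1 there were 4 higher and 12 lower, with Col16a1 at 0.27 (adjusted p 0.225) and Col1a1 at 0.38 (adjusted p 0.0765), and Col16a1 was the 1 gene called here whose arrays overlapped between the populations.

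In PDPN- cells, 13 collagen genes were higher in lymph node than in thymus and 2 were lower, against 4.42% and 5.19% of all genes (9.61% either way), with medians of 0.13 and -0.01. Higher were Col12a1, Col6a4 (2.60 ± 0.16), Col1a1 (2.25 ± 0.13), Col28a1 (1.84 ± 0.15), Col14a1 (1.47 ± 0.15), Col6a5 (1.29 ± 0.19), Col6a6 (1.10 ± 0.19), Col26a1 (0.69 ± 0.19), Col1a2 (0.67 ± 0.11), Col3a1 (0.67 ± 0.13), Col6a3 (0.65 ± 0.13), Col6a1 (0.56 ± 0.10) and Col18a1 (0.54 ± 0.13). Lower were Col15a1 (-1.74 ± 0.16) and Col4a5. The comparisons of the tissues contrast different arrays but use the same estimate of spread. Col12a1, Col1a1 and Col28a1 were higher in lymph node in both subsets, although in PDPN+BP3- cells the call of Col12a1 was lost in 2 alternatives (adjusted p up to 0.0775) and that of Col1a1 in 4 (up to 0.115). In turn, Col15a1 and Col4a5 were lower in both, and Col18a1, Col6a1, Col6a5 and Col6a6 were lower in lymph node in the PDPN+BP3- comparison and higher in lymph node in the PDPN- comparison. The call of Col26a1 was lost in 6 alternatives (adjusted p up to 0.162), and that of Col18a1 without thymus PDPN- replicate 1 or 3 (up to 0.0598). T-lineage and epithelial signal were lower in lymph node in both comparisons, each with 5 of 6 genes called lower (epithelial medians of -0.63 in PDPN+BP3- cells and -0.99 in PDPN- cells). The mean over the 6 epithelial genes was 2.81 to 3.07 in the lymph node populations, and 3.35 to 4.07 and 4.04 to 4.43 in the PDPN+BP3- and PDPN- cells of thymus. In PDPN+BP3- cells 2 of 3 mesothelial and 3 of 6 fibroblast genes (median -0.57) were also lower in lymph node. Of 8 pericyte and smooth muscle genes 7 were higher there and 1 lower (median 1.11). Also higher there were 4 of 5 measured reticular and 3 of 7 endothelial genes. In PDPN- cells 3 of 6 fibroblast genes were higher in lymph node and 3 of 8 pericyte and smooth muscle genes lower. The part of cells with these markers in the collagen differences was not tested.

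**Figure D5:**
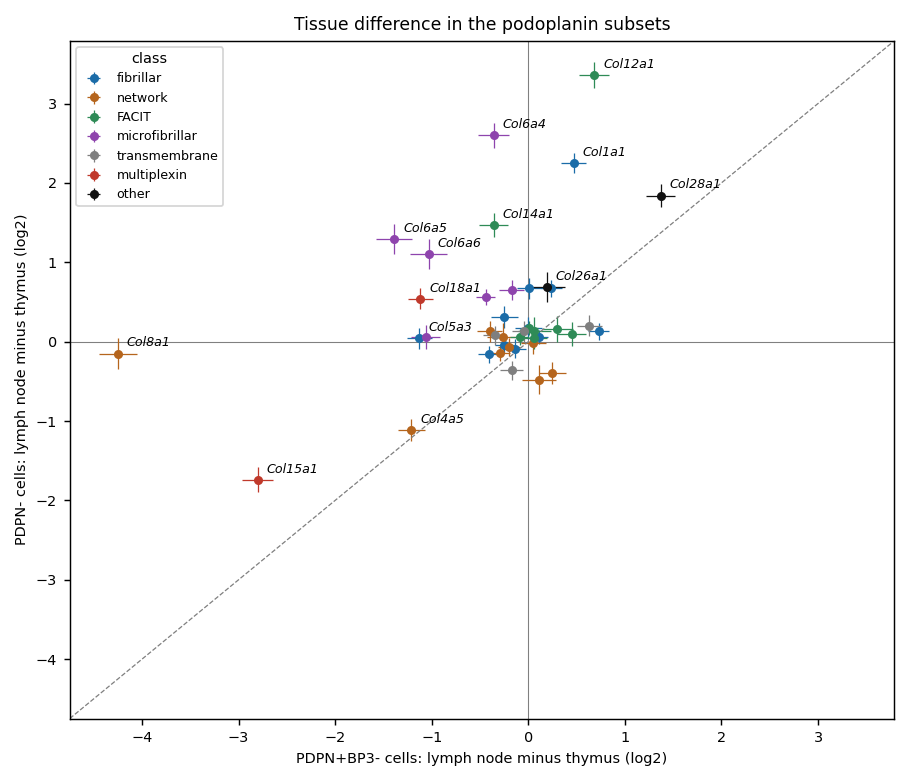
Log2 difference lymph node minus thymus in PDPN- cells (vertical) against that in PDPN+BP3- cells (horizontal) for the 42 collagen genes, coloured by class, with bars of 1 standard error and a dashed line of equality. Col15a1 and Col4a5 lie below zero on both axes, Col12a1, Col1a1 and Col28a1 lie above zero on both, and Col6a5, Col6a6 and Col18a1 lie left of zero and above zero.

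Lymph node PDPN+BP3+ cells were also set against thymus PDPN+BP3- cells. In that comparison 3 collagen genes were higher in lymph node and 19 lower, against 19.4% and 9.14% of all genes (28.6% either way). The medians were -0.27 over collagen genes and 0.04 over all genes. Centring on array medians moved the median of all genes by -0.13 and that of the collagen genes to -0.40, with 3 genes higher and 22 lower. Col15a1 differed by -6.16 ± 0.16, Col8a1 by -4.75 ± 0.20, Col6a5 by -4.04 ± 0.19, Col6a6 by -2.89 ± 0.19 and Col5a3 by -2.03 ± 0.13. Also lower were Col5a2 (-1.56 ± 0.11), Col4a5 (-1.46 ± 0.14), Col3a1 (-1.43 ± 0.13), Col5a1 and Col6a2 (-1.13 ± 0.14 and -1.13 ± 0.15), Col18a1 (-1.04 ± 0.13) and 8 further genes by -0.78 to -0.28. The 3 higher genes were Col28a1 (1.75 ± 0.15), Col12a1 (0.90 ± 0.16) and Col6a4 (0.76 ± 0.16). The calls of Col4a4, Col4a6 and Col8a2, genes of low signal, were lost in 6, 7 and 1 alternatives, with adjusted p of up to 0.122, 0.121 and 0.0695. All 6 fibroblast genes were lower in the lymph node cells (median -4.74) and all 5 measured reticular genes higher. Of 8 pericyte and smooth muscle genes 7 were higher and 1 lower (median 1.6). Their part in the collagen differences was not tested.

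Collagen chains are hydroxylated and folded in the endoplasmic reticulum, trimmed outside the cell and then cross-linked, and genes of these steps were followed in the same arrays. Of 16 measured genes of hydroxylation and folding, 14 were higher and 2 lower in the PDPN+BP3- subset of thymus than in its PDPN- cells (median 0.78), and 10 were higher and 2 lower in lymph node (median 0.58). Among all genes 10.3% were higher and 18.2% lower in thymus, and 13.4% higher and 9.79% lower in lymph node. P4ha2, a prolyl 4-hydroxylase subunit, differed by 2.39 ± 0.22 and 2.34 ± 0.22 in thymus and lymph node. The lysyl hydroxylases Plod1 and Plod2 were higher in thymus PDPN+BP3- cells by 1.32 ± 0.13 and 1.67 ± 0.14. In thymus the 2 lower genes were the collagen galactosyltransferase Colgalt2 (-1.60 ± 0.16) and P3h2 (-2.57 ± 0.18), a prolyl 3-hydroxylase that acts on type IV collagen. In the lymph node comparison the lower genes were Colgalt2 (-2.69 ± 0.16) and P4ha3 (-0.91 ± 0.22).

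Comparing PDPN+BP3+ with PDPN+BP3- cells of lymph node, 2 of the 16 were higher and 7 lower (median -0.32), against 8.49% and 7.74% of all genes. The higher ones were P4ha3 (2.40 ± 0.22) and Plod2 (0.97 ± 0.14), the lysyl hydroxylase of collagen telopeptides. Plod2 averaged 7.33 ± 0.14 in the PDPN+BP3+ cells of lymph node, 6.36 ± 0.10 in its PDPN+BP3- cells and 5.74 ± 0.19 in its PDPN- cells (SD, n = 3). These 2 genes ran against the fibrillar chains, which were lower in PDPN+BP3+ cells. Against PDPN- cells of lymph node, 10 of the 16 were higher in PDPN+BP3+ cells and 2 lower (median 0.50), against 16.1% and 11.2% of all genes, where 1 of 11 fibrillar genes was higher and 1 lower.

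All 7 measured procollagen-processing genes were higher in the PDPN+BP3- subset of thymus than in its PDPN- cells (median 1.08), and 5 were higher and 1 lower in lymph node (median 0.82), against 10.3% of all genes higher in thymus and 13.4% higher and 9.79% lower in lymph node. Pcolce2, an enhancer of the C-proteinase, differed by 5.28 ± 0.32 and 4.21 ± 0.32, and the C-proteinase Bmp1 by 1.08 ± 0.13 and 0.88 ± 0.13. Adamts14, an N-proteinase, was higher in PDPN+BP3- cells of thymus (0.91 ± 0.11) and lower in those of lymph node (-2.07 ± 0.11), a reversal with the same signs as those of Col6a4 and Col18a1. In lymph node PDPN+BP3+ cells, Pcolce2 averaged 3.64 ± 0.56, against 7.63 ± 0.71 in PDPN+BP3- cells. Adamts3, another N-proteinase, was higher in PDPN+BP3+ than in PDPN+BP3- cells by 0.68 ± 0.18.

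All 5 measured cross-linking genes were higher in the PDPN+BP3- subset than in PDPN- cells in thymus (median 2.37) and in lymph node (median 1.46), where the all-gene medians were -0.05 and -0.01 and 10.3% and 13.4% of all genes were higher. Lox, the lysyl oxidase that starts cross-links, read 6.61, 6.44 and 6.28 in the PDPN+BP3+ cells of lymph node, 9.02, 8.85 and 8.70 in its PDPN+BP3- cells and 6.77, 6.17 and 6.46 in its PDPN- cells. In thymus, Lox read 8.52, 9.11 and 9.11 in PDPN+BP3- cells, against 6.33, 5.81 and 5.87 in PDPN- cells. PDPN+BP3+ and PDPN- cells of lymph node overlapped for Lox, as they did for Col3a1. Of the other members, Loxl1 was higher in PDPN+BP3- cells by 4.25 ± 0.16 in thymus and 2.80 ± 0.16 in lymph node, and the transglutaminase Tgm2 by 2.16 ± 0.19 and 1.46 ± 0.19. In lymph node PDPN+BP3+ cells 4 of the 5 were lower than in PDPN+BP3- cells, against 7.74% of all genes: Lox (-2.41 ± 0.19), Loxl2 (-1.91 ± 0.11), Loxl4 (-0.97 ± 0.29) and Loxl1 (-0.67 ± 0.16).

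The arrays measured 10 genes whose products bind collagen fibrils or basement membranes. Of these, 8 were higher and 1 lower in the PDPN+BP3- subset of thymus than in its PDPN- cells (median 1.48). In lymph node 8 were higher (median 1.01). The shares of all genes were 10.3% higher and 18.2% lower in thymus, and 13.4% higher in lymph node. The proteoglycan Lum, which regulates fibril width, was higher by 6.20 ± 0.27 in thymus and 3.41 ± 0.27 in lymph node. Fmod, a related proteoglycan, was the lower gene in thymus (-2.23 ± 0.18) and was higher in lymph node (1.0 ± 0.18). Comparing PDPN+BP3+ with PDPN+BP3- cells of lymph node, 6 were lower and 1 higher (median -0.64), against 7.74% and 8.49% of all genes. The lower ones included Lum (-3.88 ± 0.27), Dpt (-2.45 ± 0.27), Tnxb (-1.85 ± 0.19) and Dcn (-0.51 ± 0.15), and the higher one was Fmod (1.45 ± 0.18). Fmod averaged 9.92 ± 0.21 in the PDPN+BP3+ cells of lymph node, 8.47 ± 0.38 in its PDPN+BP3- cells and 7.47 ± 0.29 in its PDPN- cells, and 5.38 ± 0.12 and 7.61 ± 0.12 in thymus PDPN+BP3- and PDPN- cells. These lists were chosen with results of the same arrays known, and their counts are descriptions.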

How the data were processed

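Per the submitters' processing notes, the deposited values are signals made with RMA in the Affymetrix Expression Console. Their log base and the software versions are not stated in any label or header used. The authors' deposited values were taken as log2 because they run from 1.07 to 12.07. Per the labels, cells were freed with liberase TM and DNase I, and the Ovation Pico WTA System V2 amplified the RNA.

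The table held 24758 rows, of which 20844 had 1 gene symbol in the array annotation, 1735 several and 2179 none. For each gene the row with the highest mean was kept, leaving 18718 genes, and 4 collagen genes had more than 1 row. With limma 3.58.1 in R 4.3.3, each gene got 1 mean for each population from all 15 arrays (10 residual degrees of freedom, with 5.5 from the prior), and p-values were adjusted by Benjamini-Hochberg over all genes of a comparison. The fit was also run on simulated data with independent noise and few shifted genes. That setting is unlike these arrays, where 45.3% of genes varied by the F test, so the run is no support for the calls here. The number of arrays limits the precision.

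The collagen genes, classes and lists, and the rules for naming, were chosen with earlier results of these data known. Array values were printed for up to 6 genes per class among those with the widest range of means, Col1a1, Col15a1 and Col18a1 included, and the other lists gave up to 5 genes with the smallest adjusted p of the F test, plus members where 5 or fewer were called. Coordinates and promoter windows are those of RefSeq on GRCm38.p6. There were 23 alternatives: 8 other settings of the fit or the scaling and the 15 fits that each left out 1 array.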

Additional observations from a re-analysis of the deposited data

Results flagged for a closer look

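For 16 collagen genes the gap separating the PDPN+BP3- subset from PDPN- cells depended on the tissue by the interaction test of the limma fit. The value is the lymph node difference minus the thymus difference. It was -4.10 for Col8a1, -2.96 for Col6a4, -2.68 for Col12a1, -2.68 for Col6a5, -2.14 for Col6a6, -1.83 for Col14a1, -1.78 for Col1a1 and -1.66 for Col18a1. Smaller values were -1.17 for Col5a3, -1.12 for Col6a2, -1.06 for Col15a1, -1.0 for Col6a1, -0.81 for Col6a3 and -0.66 for Col3a1. Positive values were 0.65 for Col4a2 and 0.59 for Col11a1. Col6a4 and Col18a1 were called in opposite directions in the tissues. Fibroblast and pericyte markers gave interactions as well, as listed above, and their part in these values was not tested. No population had the 4 arrays needed for a test of single outlying arrays.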

How the results depend on the processing

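Of 336 pairs of collagen gene and comparison 144 were called, 123 of them in every one of the 23 alternatives that tested the gene, and 0 changed sign. Leaving out each array in turn gave 24 to 26 called genes (26 with all arrays) for the thymus subsets, 16 to 19 (18) for PDPN+BP3- against PDPN- and 15 to 17 (16) for PDPN+BP3+ against PDPN- cells of lymph node, 12 to 16 (15) for PDPN+BP3+ against PDPN+BP3-, 14 to 17 (16) and 13 to 17 (15) for the tissues in PDPN+BP3- and PDPN- cells, 20 to 23 (22) for lymph node PDPN+BP3+ against thymus PDPN+BP3-, 13 to 17 (16) for the interaction and 28 to 32 (31) for the F test. Of the 21 calls lost somewhere, Col16a1 between the tissues in PDPN+BP3- cells was lost in 18 of 23 alternatives, the interaction of Col4a2 in 17 of 23 and Col4a3 between the lymph node subsets in 14 of 22. Without thymus PDPN+BP3- replicate 1, Col16a1 moved to 0.27, with 0.45 over all arrays. Of all genes called in the thymus subset comparison 64% were lower, 44.5% after cyclic loess. The shares for the tissues in PDPN+BP3- cells were 30.9% and 53.9%, for lymph node PDPN+BP3+ against thymus PDPN+BP3- cells 32% and 53.1%, and for the interaction 31.8% and 57.8%.

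With the replicate number as a block the counts were 26, 17, 16, 15, 17, 15, 22, 15 and 30 in the order above. Whether the numbers mark shared experiments across populations is not stated. Deviations from population means correlated by -0.174 to 0.288 between arrays of the same number (6 of 30 above 0.1). Between arrays of other numbers they correlated by -0.305 to 0.223 (9 of 60 above 0.1). Such weak correlations cannot decide whether the samples were paired, because deviations within a population are tied to each other by its mean. The block ended the calls of Col4a3 between the lymph node subsets and of Col4a2 in the interaction, and it added 1 call.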

Other observations

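Collagen receptors and collagen-degrading proteases were followed too. Of 9 measured receptors, 4 were higher and 4 lower in the PDPN+BP3- subset of thymus than in its PDPN- cells (median 0.04), and 2 were higher and 3 lower in lymph node (median -0.08). Among all genes 10.3% were higher and 18.2% lower in thymus, and 13.4% higher and 9.79% lower in lymph node. The integrin subunits of the list fell on both sides. Itga11, a receptor of fibrillar collagen on fibroblasts, was higher in PDPN+BP3- cells by 3.40 ± 0.20 in thymus and 2.63 ± 0.20 in lymph node. Itga10 was lower in both (-2.50 ± 0.13 each), as was Itga1, which binds type IV collagen (-1.35 ± 0.15 and -1.28 ± 0.15). Mrc2, an endocytic receptor that takes up collagen, was higher by 3.12 ± 0.16 and 2.38 ± 0.16.

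Of 6 measured proteases, 4 were higher in the PDPN+BP3- subset than in PDPN- cells of each tissue, with medians of 1.71 in thymus and 0.75 in lymph node, against 10.3% and 13.4% of all genes. Mmp2, Mmp14 and Ctsk were higher in both, Mmp9 in thymus, and Mmp8 in lymph node (0.37 ± 0.11). Mmp8 read 1.71 to 2.43 over all arrays, below the table median, so its signal need not stand above background. It did not pass the F test of the limma fit (adjusted p 0.0549). The gelatinase Mmp9 averaged 7.0 ± 0.24, 6.43 ± 0.12 and 6.61 ± 0.52 in lymph node PDPN+BP3+, PDPN+BP3- and PDPN- cells, and 8.56 ± 0.18 and 4.01 ± 0.36 in thymus PDPN+BP3- and PDPN- cells (SD, n = 3). Its subset difference was 4.55 ± 0.22 in thymus and -0.18 ± 0.22 in lymph node, and these differed by -4.73 ± 0.32. Mmp14, a membrane-bound collagenase, was higher in PDPN+BP3- cells by 1.19 ± 0.09 in thymus and 1.16 ± 0.09 in lymph node, and the gelatinase Mmp2 by 2.69 ± 0.25 and 3.10 ± 0.25.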
